A study of Mus musculus with 8 samples.

Results

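The laminins and integrins of adult mouse testis were taken from a table of 24988 genes by their symbols: the chains Lama, Lamb and Lamc, the integrin alpha subunits and the integrin beta subunits. The table held 36 of them, 11 laminin chains and 25 integrin subunits. Itgb6, whose symbol also meets the rule, was not analysed here. RNA from whole adult testis was sequenced in 8 libraries, 4 with the genotype label WT and 4 with the genotype label Kpna2-/-. The product of Kpna2 is an importin alpha, which brings cargo proteins to the nuclear pore for import. The age of the mice beyond "adult", their strain, the way the Kpna2 allele was made and whether each library came from its own animal were not stated in the labels used here, so p-values reflect the spread among these libraries, which may be technical.

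Laminins are secreted as heterotrimers of one alpha, one beta and one gamma chain and form sheets in basement membranes. Integrins are receptors made of one alpha and one beta subunit, and the alpha subunit largely sets whether a receptor binds laminin, collagen, ligands with an Arg-Gly-Asp (RGD) motif or counter-receptors on other cells. In the testis the basement membrane of the seminiferous tubule lies between the contractile peritubular myoid cells on the outside and the Sertoli cells and spermatogonia on the inside.

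Each library held between 31133443 and 37797812 reads. Values are CPM (reads that the authors scaled per library, with column totals of 990244 to 1025489), given as mean ± SD over n = 4 libraries per group. Fold changes were fitted to log2(CPM + 0.5), a scale that understates changes of low genes, and a positive sign means a higher level under the knockout label. A gene is said to have risen or fallen where its adjusted p in limma was under 0.05. Kpna2 itself stood at 13.9 ± 1.11 CPM under the wild-type label and at 19.2 ± 2.76 CPM under the knockout label (limma adjusted p = 0.0079). Its groups lay close without overlapping, wild-type library 2 at 15.08 CPM and knockout library 1 at 15.27 CPM. RNA counted for the targeted gene thus runs counter to the genotype label, and whether it comes from an intact transcript was not tested. Higher or lower below refers only to how the libraries were labelled. Knockout library 4, for example, is the library labelled knockout with that number. In whole tissue, fewer cells of a type and less RNA per cell cannot be told apart.

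Per kilobase of merged exons, the scale on which levels of different genes can be compared, the highest level under the wild-type label was that of Itgae, at 19.1 ± 0.371 CPM per kb. Itgb1 followed at 13.1 ± 0.472 and Itgb5 at 11.2 ± 0.540 CPM per kb. Among the laminins, Lamb2 was highest at 7.86 ± 0.612 CPM per kb, then Lamc3 at 4.09 ± 0.841 and Lama1 at 2.20 ± 0.132 CPM per kb. These 3 chains led their classes: Lama1 held 39.6% ± 1.27 of the alpha chain level, Lamb2 71.3% ± 1.05 of the beta chain level and Lamc3 68.4% ± 3.93 of the gamma chain level under the wild-type label (SD, n = 4). The same chains led under the knockout label, with 38.5% ± 2.31, 67.5% ± 1.56 and 67.4% ± 2.53. Lowest of all were Itgb8 at 0.0775 ± 0.0128 and Itgam at 0.108 ± 0.0451 CPM per kb, the latter from 3 to 32 reads per library. In the middle of the order, Itga6, Lamb3, Lamb1, Lamc1, Itga11 and Lama2 stood between 1.44 and 1.63 CPM per kb under the wild-type label, and neighbours in that order differed by less than their SDs of 0.112 to 0.200 CPM per kb.

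**Figure D1:**
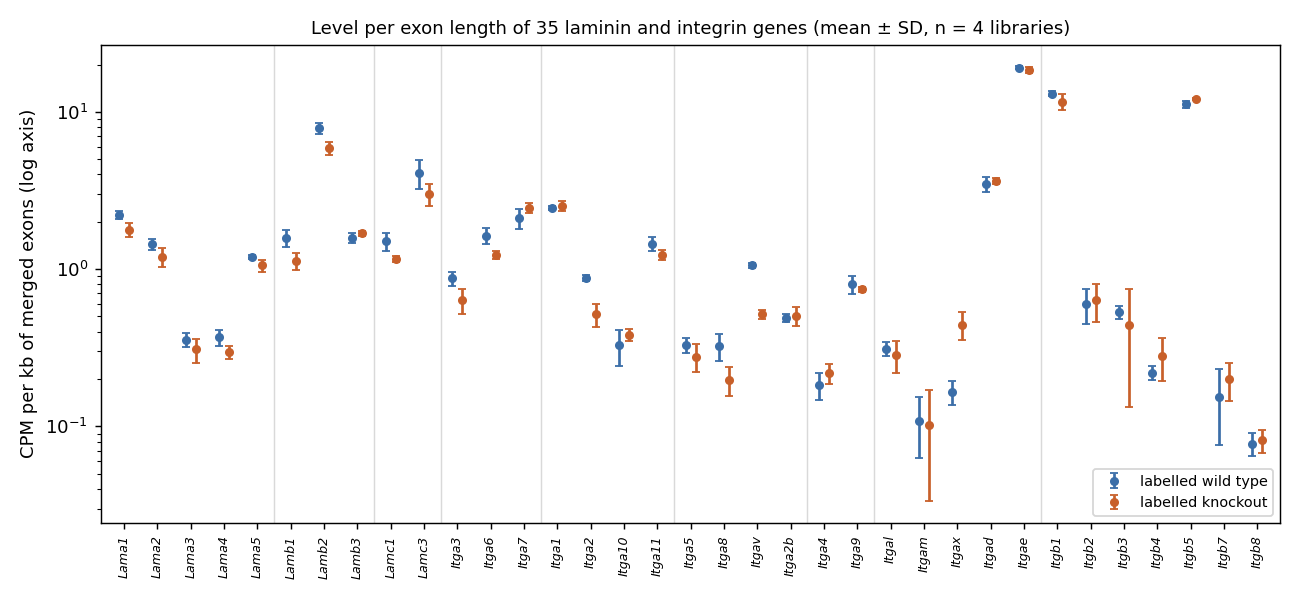
Level of 35 of the genes in CPM per kb of merged exons on a log axis, mean ± SD of 4 libraries labelled wild type (blue) and 4 labelled knockout (orange), grouped by role. Itgae, Itgb1, Itgb5 and Lamb2 lie highest, and Itgav, Itga2 and Itgax show the widest gaps between groups for their spread.

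Of the 36 genes, 35 passed the filter of a mean of at least 0.5 CPM and were tested. Of these 35, 10 fell and 1 rose in the libraries labelled knockout. Over all 22027 genes tested, 16.9% were called, 8.32% lower and 8.62% higher. Itgb7, the gene under the filter, stood at 0.425 ± 0.216 and 0.551 ± 0.151 CPM. The values of the 4 and 4 libraries did not overlap for 12 lower genes and 1 higher gene of the 36. Among all genes tested they did not overlap for 2360 lower and 2233 higher genes, 20.9% in either direction. The median log2 fold change of the 35 genes was -0.17, beside -0.01 over all genes tested. The number that fell was 5 without knockout library 4 and 6 without wild-type library 1. Without knockout libraries 1 and 4 together, an alternative chosen after the data were seen, 5 fell. These were Itga2, Itga6, Itgav and Lamb2 of the 10 genes, and Itgb3, which was not called with all libraries.

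The genes that fell were the laminin chains Lama1, Lamb1, Lamb2, Lamc1 and Lamc3 and the integrin subunits Itga2, Itga3, Itga6, Itga8 and Itgav. Itgax rose. The promoter windows of 5 of these genes are shown because their genes had the smallest adjusted p among the members that were called and have an entry in the RefSeq table (GRCm38.p6). Each window runs 5′ to 3′ from 250 bases before to 50 bases after the annotated start. Capitals mark matches, on either strand, to the GC box GGGCGG, the CCAAT box, the TATA box TATAAA or the AP-1 site TGANTCA. The windows lie at chr2:83724147-83724446 on the plus strand for Itgav, chr13:114932051-114932350 on the minus strand for Itga2, chr9:108479612-108479911 on the plus strand for Lamb2, chr12:31265043-31265342 on the plus strand for Lamb1 and chr7:128129300-128129599 on the plus strand for Itgax.
Itgav: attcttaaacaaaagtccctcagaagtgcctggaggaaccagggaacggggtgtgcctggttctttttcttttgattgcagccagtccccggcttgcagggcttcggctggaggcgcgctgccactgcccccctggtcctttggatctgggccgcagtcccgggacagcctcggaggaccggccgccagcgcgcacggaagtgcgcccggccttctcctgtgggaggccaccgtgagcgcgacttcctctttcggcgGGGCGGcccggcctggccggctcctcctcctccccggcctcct
Itga2: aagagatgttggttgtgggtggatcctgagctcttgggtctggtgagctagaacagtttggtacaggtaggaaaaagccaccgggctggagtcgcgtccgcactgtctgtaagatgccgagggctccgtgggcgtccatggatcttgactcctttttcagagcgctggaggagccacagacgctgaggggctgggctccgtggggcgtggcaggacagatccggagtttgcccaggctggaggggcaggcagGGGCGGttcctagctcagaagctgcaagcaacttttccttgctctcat
Lamb2: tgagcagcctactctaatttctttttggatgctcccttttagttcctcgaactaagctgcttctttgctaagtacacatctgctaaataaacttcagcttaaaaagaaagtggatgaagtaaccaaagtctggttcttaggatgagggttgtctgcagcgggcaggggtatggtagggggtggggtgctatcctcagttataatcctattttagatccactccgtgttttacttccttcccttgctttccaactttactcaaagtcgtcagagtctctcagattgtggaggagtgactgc
Lamb1: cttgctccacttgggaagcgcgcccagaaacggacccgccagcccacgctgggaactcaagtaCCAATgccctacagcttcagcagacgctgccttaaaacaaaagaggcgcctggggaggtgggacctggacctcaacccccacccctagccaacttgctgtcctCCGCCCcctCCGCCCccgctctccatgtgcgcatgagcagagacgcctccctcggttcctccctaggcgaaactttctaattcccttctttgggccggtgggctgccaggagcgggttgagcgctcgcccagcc
Itgax: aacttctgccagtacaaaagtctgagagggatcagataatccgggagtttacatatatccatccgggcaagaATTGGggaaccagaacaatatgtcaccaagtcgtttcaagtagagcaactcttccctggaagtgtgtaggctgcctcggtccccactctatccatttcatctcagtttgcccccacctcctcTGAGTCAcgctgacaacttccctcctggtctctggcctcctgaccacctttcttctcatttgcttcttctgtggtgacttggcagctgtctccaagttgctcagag

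The Itgav and Itga2 windows each held 1 GC box, the Lamb1 window 2 GC boxes and 1 CCAAT box, and the Lamb2 window none of the 4 motifs. The Itgax window differed from these in its motifs, with 1 CCAAT box, 1 AP-1 site and no GC box. Windows were found for 22 of the 36 genes, 24 windows in all. A GC box was present in 12 of these 24 windows (50%) and in 35.7% of all 32851 windows, and a CCAAT box in 4 (16.7%) and in 37.4% of all windows. The TATA box was in none of the 24 and in 13.6% of all windows, and the AP-1 site in 3 (12.5%) and in 7.81%. The median GC content was 59.2% over the 24 windows and 52.7% over all. These are matches of letters in a window of fixed length, and no motif was tested against the changes in expression.

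Of the 5 laminin alpha chains, which carry the domains that bind receptors, Lama1 alone was called. Lama1 (ENSMUSG00000032796, chromosome 17, 67697259 to 67822647 in GRCm38), an early basement membrane chain, had 22.8, 19.6, 21.5 and 21.4 CPM across libraries labelled wild type and 17.4, 15.9, 19.6 and 16.1 CPM across those labelled knockout. The groups met closely, wild-type library 2 at 19.64 CPM and knockout library 3 at 19.63 CPM, without overlapping. The fall was 1.24-fold, a log2 fold change of -0.30 with an SE of 0.08 (limma adjusted p = 0.018), and it was not called without wild-type library 1, without knockout library 4 or without knockout libraries 1 and 4.

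Lama2, the alpha chain of muscle and nerve basement membranes, had 22.8, 21.5, 23.5 and 26.2 CPM for the wild-type label and 23.003, 19.6, 19.0 and 16.6 CPM for the knockout label. Knockout library 1 lay inside the wild-type range and the other 3 below it. Its log2 fold change was -0.26 (limma adjusted p = 0.066), and it passed without knockout library 1 (limma adjusted p = 0.014, log2 fold change -0.34). Lama5, a chain of many adult basement membranes, stood at 13.6 ± 0.319 and 12.0 ± 1.028 CPM, all 4 libraries labelled knockout below the 4 others, without passing the test (limma adjusted p = 0.15). Lama4, a chain of vessel walls, stood at 4.45 ± 0.521 and 3.57 ± 0.345 CPM and Lama3, a chain of epithelial anchorage, at 3.82 ± 0.374 and 3.31 ± 0.577 CPM (limma adjusted p = 0.11 and 0.36). All 5 alpha chains had a log2 fold change below 0, between -0.30 and -0.17.

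The beta chains divided into Lamb1 and Lamb2, which fell, and Lamb3, which was not called. Lamb2 (ENSMUSG00000052911, chromosome 9, 108479736 to 108490530 in GRCm38), the beta chain of muscle synapses and kidney filters, had 51.8, 49.3, 43.1 and 47.0 CPM across libraries labelled wild type and 33.7, 38.3, 39.4 and 31.8 CPM across those labelled knockout. No library labelled knockout reached the lowest wild-type value, and the fall was 1.34-fold (log2 fold change -0.42, SE 0.08, limma adjusted p = 0.0022). Lamb2 was called in all 18 alternatives, with an adjusted p of at most 0.030 in each.

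Lamb1 (ENSMUSG00000002900, chromosome 12, 31265234 to 31329644 in GRCm38), the widespread partner of the gamma 1 chain, had 18.4, 14.1, 14.4 and 15.7 CPM for the wild-type label and 11.5, 11.2, 12.8 and 9.43 CPM for the knockout label. The groups stood apart, with knockout library 4 lowest. It fell by 0.46 on the log2 scale (SE 0.10, limma adjusted p = 0.0069), a 1.395-fold fall that was not called in 1 alternative, without knockout libraries 1 and 4 (limma adjusted p = 0.056). Lamb3, the beta chain of the skin trimer, had 11.4, 10.7, 9.96 and 9.75 CPM and 10.9, 10.7, 11.8 and 11.2 CPM, with overlapping groups (log2 fold change 0.09, limma adjusted p = 0.47). Per kilobase, Lamb3 made up 13.7% to 15.004% of the beta chain level for the wild-type label and 17.9% to 21.6% for the knockout label, while the summed beta chain level was 11.018 ± 0.853 and 8.70 ± 0.738 CPM per kb.

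The gamma chains complete the trimer, and Lamc3 and Lamc1 fell. Lamc3 (ENSMUSG00000026840, chromosome 2, 31887291 to 31946539 in GRCm38), which has been described in the testis at the contact of Sertoli cells with spermatids, had 32.3, 21.9, 21.2 and 24.3 CPM in the libraries labelled wild type. The libraries labelled knockout had 17.7, 19.9, 20.8 and 14.4 CPM. Wild-type library 1 stood far above its group and knockout library 4 lowest in its own, and the distance between wild-type library 3 and knockout library 3 was small. The 1.37-fold fall (log2 fold change -0.44, SE 0.13, limma adjusted p = 0.035) was not called in 6 of 18 alternatives: without wild-type library 1 or 4, without knockout library 1 or 4 or both, and with no variance trend.

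Lamc1 (ENSMUSG00000026478, chromosome 1, 153218922 to 153332786 in GRCm38), the gamma chain of most trimers, had 11.9, 12.3, 10.9 and 14.8 CPM for the wild-type label and 9.63, 10.1, 9.52 and 9.11 CPM for the knockout label. The knockout values lay close together and below all wild-type values. It fell 1.30-fold (log2 fold change -0.35, SE 0.09, limma adjusted p = 0.019), a call lost without wild-type library 4, without knockout library 4 and without knockout libraries 1 and 4. Of the 11 laminin chains 5 fell and none rose, beside 8.32% lower and 8.62% higher over all genes tested. The groups did not overlap for 7 of the 11, all lower. Of the 22027 genes tested, 2360 were all lower and 2233 all higher, 20.9% in either direction. The number of chains that fell was 2 without knockout library 4, 3 without wild-type library 1, 3 without wild-type library 4 and 1 without knockout libraries 1 and 4. The median log2 fold change of the 11 was -0.30.

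**Figure D2:**
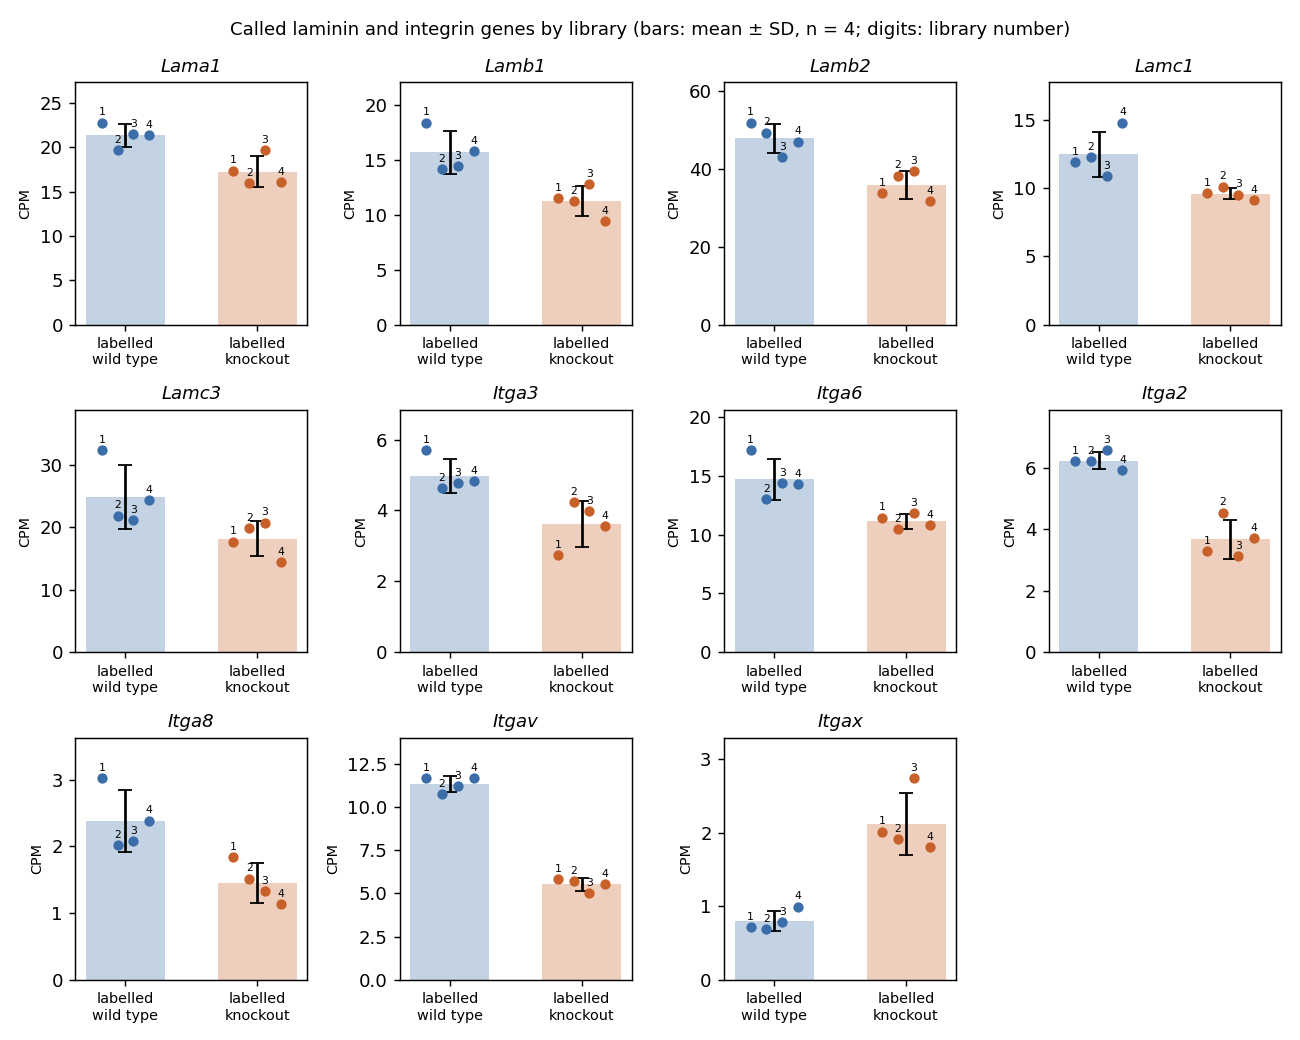
CPM of the 11 called genes in each library (points, with the library number) and mean ± SD of 4 libraries per group (bars), each panel on its own axis from 0. In every panel the 4 libraries labelled knockout lie on one side of the 4 labelled wild type, higher for Itgax and lower for the other 10 genes.

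Among the 3 laminin-binding alpha subunits, Itga6 and Itga3 fell and Itga7 was not called. Itga6 (ENSMUSG00000027111, chromosome 2, 71745616 to 71858416 in GRCm38), a laminin receptor subunit used as a surface marker of spermatogonial stem cells, had 17.2, 13.1, 14.4 and 14.3 CPM across libraries labelled wild type and 11.4, 10.4, 11.8 and 10.8 CPM across those labelled knockout. All knockout values lay below 13.1 CPM. The fall was 1.32-fold (log2 fold change -0.38, SE 0.09, limma adjusted p = 0.0088) and was called in all 18 alternatives.

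Itga3 (ENSMUSG00000001507, chromosome 11, 95044474 to 95076801 in GRCm38), a laminin receptor subunit of epithelia, had 5.70, 4.62, 4.77 and 4.82 CPM for the wild-type label and 2.74, 4.23, 3.97 and 3.55 CPM for the knockout label. Knockout library 1 was lowest and the groups did not overlap. The call (log2 fold change -0.42, SE 0.13, limma adjusted p = 0.039) was lost in 8 of 18 alternatives, among them each omission of a wild-type library and that of knockout library 1 or 4. Itga7, the laminin receptor subunit of muscle, went the other way without passing, with 14.9, 16.4, 16.7 and 20.7 CPM and 21.98, 18.6, 19.1 and 19.96 CPM (log2 fold change 0.22, limma adjusted p = 0.14). It passed without wild-type library 4 (limma adjusted p = 0.023, log2 fold change 0.31), the wild-type library that overlaps the other group. Per kilobase, the ratio of Itga7 to Itga6 was 0.965 to 1.61 for the wild-type label and 1.80 to 2.14 for the knockout label. That ratio restates the values of these genes and was not tested.

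Of the 4 collagen-binding alpha subunits, Itga2 fell. Itga2 (ENSMUSG00000015533, chromosome 13, 114833081 to 114932100 in GRCm38) had 6.23, 6.24, 6.58 and 5.92 CPM for the wild-type label and 3.30, 4.55, 3.13 and 3.73 CPM for the knockout label. The wild-type values lay close together and the highest knockout value stayed well under them. It fell 1.70-fold (log2 fold change -0.70, SE 0.12, limma adjusted p = 0.00085) and was called in all 18 alternatives. Itga1, the other collagen receptor subunit of wide expression and its neighbour on chromosome 13, had 46.9, 46.9, 44.9 and 44.0 CPM and 51.4, 47.5, 44.6 and 44.7 CPM (log2 fold change 0.04, limma adjusted p = 0.69). Itga11, a collagen receptor subunit of fibroblasts, stood at 7.46 ± 0.757 and 6.32 ± 0.505 CPM and Itga10, that of cartilage, at 1.70 ± 0.431 and 1.98 ± 0.179 CPM, with overlapping groups (limma adjusted p = 0.16 and 0.42). In the annotation 33.5% of the exon bases of Itga10 are shared with the overlapping gene Gm42957, so its values are uncertain. The ratio of Itga2 to Itga1 per kilobase was 0.347 to 0.382 under the wild-type label and 0.167 to 0.249 under the knockout label. It likewise restates the values of Itga2 and was not tested.

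The largest fall of the family was that of Itgav, one of 4 alpha subunits for ligands with an RGD motif. Itgav (ENSMUSG00000027087, chromosome 2, 83724397 to 83806916 in GRCm38), a receptor subunit for vitronectin and for latent TGF-beta, had 11.7, 10.7, 11.2 and 11.7 CPM across libraries labelled wild type and 5.84, 5.72, 5.004 and 5.56 CPM across those labelled knockout. Both groups were tight, with SDs of 0.444 and 0.369 CPM. The mean was 2.05-fold lower, a log2 fold change of -0.97 with an SE of 0.08 (limma adjusted p = 3.6e-06). It was called in all 18 alternatives, with log2 fold changes of -1.0304 to -0.82.

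Itga8 (ENSMUSG00000026768, chromosome 2, 12106632 to 12301922 in GRCm38), a receptor subunit for nephronectin that is found on contractile cells, was low, with 3.03, 2.02, 2.08 and 2.38 CPM and 1.84, 1.52, 1.32 and 1.14 CPM from 39 to 102 reads per library. The groups stood apart. Its 1.64-fold fall (log2 fold change -0.56, SE 0.15, limma adjusted p = 0.020) was not called without wild-type library 1, without knockout library 4 or without knockout libraries 1 and 4. Antisense genes overlap 5.90% of the exon bases of Itgav, 5.05% of those of Itga8 and 6.27% of those of Lamc3, and without strand their reads cannot be told apart. Of these antisense genes only that over Lamc3, Gm13441, was measured, at 0.395 and 0.447 CPM. Genes on the other strand also share 8.04% of the exon bases of Itga4 (Cerkl, at 1.70 and 1.88 CPM) and 7.66% of those of Itgb4 (B230344G16Rik). Itga5, the fibronectin receptor subunit, stood at 1.62 ± 0.174 and 1.36 ± 0.273 CPM and Itga2b, the platelet fibrinogen receptor subunit, at 2.67 ± 0.166 and 2.76 ± 0.373 CPM (limma adjusted p = 0.37 and 0.89). Itga4 and Itga9, which share ligands such as Vcam1, stood at 2.55 ± 0.488 and 3.04 ± 0.447 CPM and at 6.18 ± 0.807 and 5.74 ± 0.197 CPM, with overlapping groups and no call by limma, edgeR or DESeq2 (unadjusted p = 0.16 and 0.40 in limma).

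**Figure D3:**
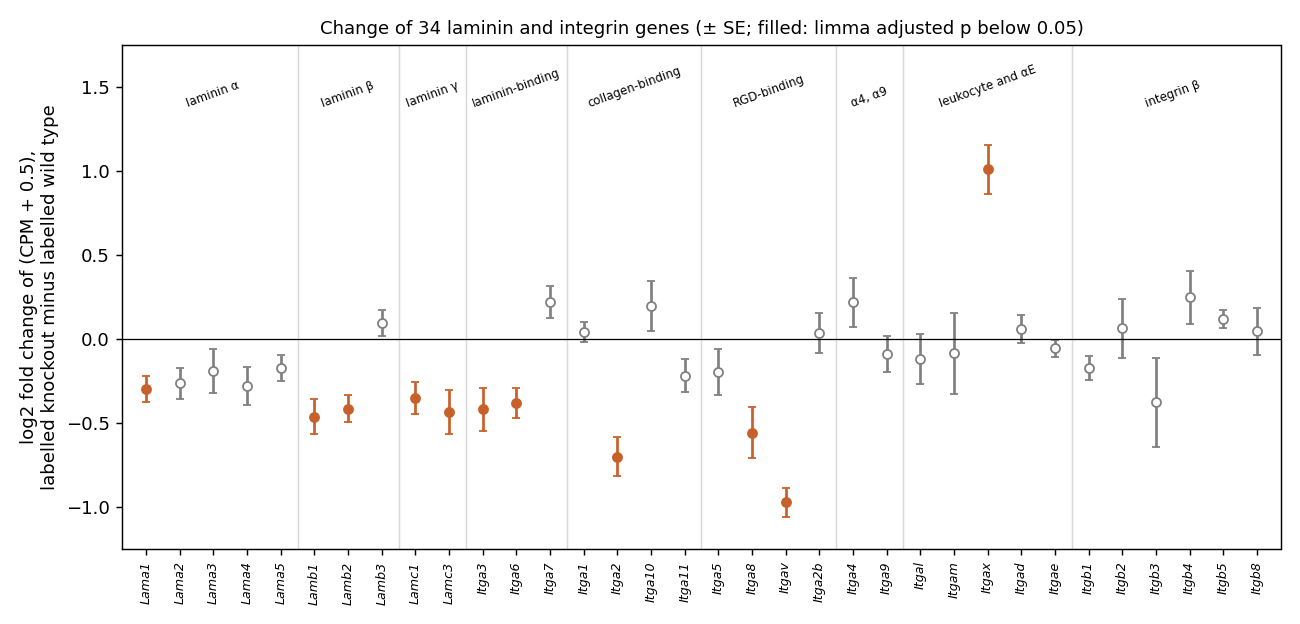
Log2 fold change of (CPM + 0.5), knockout label minus wild-type label, ± SE for 34 of the tested genes grouped by role, with called genes filled. The laminins shown lie between -0.46 and 0.09, Itgav lies lowest at -0.97 and Itgax highest at 1.01.

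No beta subunit was called. In limma 2 of the 6 tested had an unadjusted p under 0.05, Itgb1 and Itgb5, and edgeR and DESeq2 called none of the 6. Itgb1, the shared partner of the laminin and collagen receptor subunits above, had 53.2, 51.9, 56.1 and 52.1 CPM under the wild-type label. Under the knockout label it had 45.1, 51.1, 52.4 and 41.1 CPM, so that knockout library 3 lay inside the wild-type range, library 2 just below it and libraries 1 and 4 well below it (log2 fold change -0.17, limma adjusted p = 0.12). Itgb5, a partner of Itgav, had 42.5, 39.7, 38.2 and 38.5 CPM and 43.2, 42.4, 44.0 and 42.7 CPM, with a log2 fold change of 0.12 (limma adjusted p = 0.16). The ratio of Itgav to Itgb5 per kilobase was 0.0944 ± 0.00513 and 0.0425 ± 0.00336 in the 2 groups, with no overlap. That ratio is a description of the same values of Itgav, and no test of it was run. Itgav to Itgb1 did not overlap between the groups either. Among the other ratios computed, those of Lamb2 to Lamb1, Lamc3 to Lamc1, Lama2 to Lama1, Itga6 to Itgb1 and Itgax to Itgb2 all overlapped.

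Itgb3, the other classical partner of Itgav and that of Itga2b, had 2.85, 3.15, 2.99 and 3.56 CPM for the wild-type label and 5.31, 1.77, 2.03 and 1.31 CPM for the knockout label. Knockout library 1 stood above all others and the other 3 below the wild-type range. Its log2 fold change was -0.38 (limma adjusted p = 0.37) with that library and -0.73 (limma adjusted p = 0.0041) without it. In knockout library 1 the highest Itgb4 value of the 8 libraries was also found, 2.83 CPM against 1.33 to 1.80 CPM in the other 7. Fras1, a gene of the basement membrane list below, was named after its values were seen. It had 13.8 CPM in that library against 1.22 to 2.31 CPM in the other 7. The 4 measured platelet markers summed to 4.12 to 5.17 CPM under the wild-type label and 4.15 to 5.32 CPM under the knockout label, with 4.15 CPM in knockout library 1. Itgb4, the partner of Itga6 in epithelial anchorage, stood at 1.54 ± 0.156 and 1.96 ± 0.597 CPM, and Itgb8, a partner of Itgav in TGF-beta activation, at 0.857 ± 0.142 and 0.899 ± 0.145 CPM (limma adjusted p = 0.32 and 0.87).

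Among the alpha subunits of leukocyte receptors, Itgax rose and the others were not called. Itgax (ENSMUSG00000030789, chromosome 7, 128129547 to 128150657 in GRCm38), the CD11c subunit of dendritic cells and some macrophages, had 0.712, 0.693, 0.785 and 0.996 CPM across libraries labelled wild type and 2.01, 1.92, 2.74 and 1.80 CPM across those labelled knockout, from 24 to 85 reads per library. The lowest knockout value was well above the highest wild-type value. The mean was 2.66-fold higher, a log2 fold change of 1.01 with an SE of 0.14 (limma adjusted p = 0.00028). It was called in each of the 17 alternatives that tested it, with log2 fold changes of 0.55 to 1.41, the lowest at a pseudocount of 2 CPM.

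Itgb2, the beta subunit with which CD11c pairs, stood at 1.82 ± 0.448 and 1.93 ± 0.533 CPM (limma adjusted p = 0.86). Itgam, the CD11b subunit, which like Itgax lies on chromosome 7, stood at 0.544 ± 0.226 and 0.513 ± 0.344 CPM (limma adjusted p = 0.85). In the annotation 68.7% of the exon bases of Itgam are shared with the overlapping gene Gm49368, so the low Itgam values are uncertain. Itgal, the CD11a subunit of lymphocytes, stood at 2.04 ± 0.207 and 1.86 ± 0.420 CPM. For 8 macrophage markers limma, edgeR and DESeq2 made no call (2 had an unadjusted p under 0.05 in limma), and their sum was 74.4 to 82.0 CPM under the wild-type label and 66.2 to 85.2 CPM under the knockout label. Of 5 measured markers of T and NK cells, 3 passed the filter, again with no call by these 3 tools (1 had an unadjusted p under 0.05 in limma, and 1 was called higher without wild-type library 2, at a pseudocount of 2 CPM and with no variance trend), and Cd3e and Cd3g were under the filter. The sum of these 5 was 14.4 to 17.4 and 13.2 to 21.4 CPM. Most of it was Cd3d, at 11.6 and 11.8 CPM, while Cd3e stood at 0.301 and 0.380 CPM and Cd3g at 0.236 and 0.271 CPM. The sum is thus mainly a reading of Cd3d. Every gene measured had at least 30 reads over the 8 libraries together, so no measured marker could be at 0 in all of them. Cd8a, Klrd1 and Nkg7 of the T and NK cell list were not measured. Nor were Gp1bb, Gp9 and Ppbp of the platelet list and Krt5 and Krt14 of the epithelial list.

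Itgad, the CD11d subunit, and Itgae, the CD103 subunit of epithelial lymphocytes, had the highest levels of this class per kilobase. Itgad had 17.95, 16.03, 13.9 and 14.9 CPM and 16.3, 16.9, 15.4 and 16.8 CPM, and Itgae 87.4, 85.5, 89.6 and 87.6 CPM and 81.7, 86.1, 80.4 and 88.3 CPM, with overlapping groups (limma adjusted p = 0.68 and 0.46). In the annotation 8.60% of the exon bases of Itgad are shared with 4931431B13Rik on the other strand, which stood at 8.74 and 8.10 CPM, so the Itgad values are uncertain. Itgb7, the beta subunit with which CD103 pairs, was under the filter, as given above. Haspin, a kinase gene of germ cells, lies within Itgae on the other strand with 0 shared exon bases and stood at 755 and 752 CPM. The labels do not state whether counting used strand, and whether reads of Haspin enter Itgae was not tested.

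Across the libraries, the 10 genes that fell were lowest in knockout library 4 for 5 genes, and its median log2 value relative to the wild-type mean was -0.63. In knockout libraries 1, 2 and 3 that median was -0.44, -0.41 and -0.29, and in the libraries labelled wild type it was between -0.10 and 0.15, highest in library 1. For the 11 laminin chains, knockout library 4 was lowest of its group for 8 and knockout library 3 highest for 7. Wild-type library 1 was the highest of its group for 8 of the 11.

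**Figure D4:**
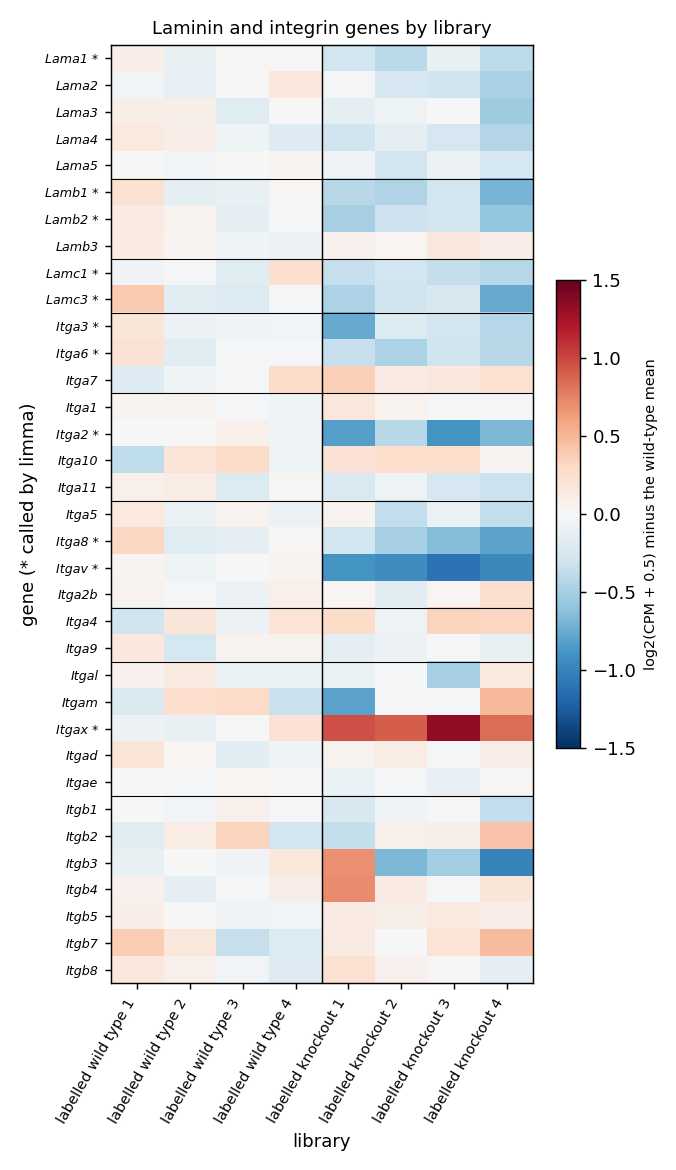
Log2(CPM + 0.5) of 35 of the genes (rows, by role, called genes starred) in each library (columns) minus the mean of the libraries labelled wild type. Knockout library 4 is bluest for most laminins, Itgav is evenly low and Itgax evenly high in the 4 libraries labelled knockout, and Itgb3 is high in knockout library 1 alone.

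Other components of the basement membrane moved in part with the laminins. Of 17 genes, 6 fell and 1 rose, beside 8.32% lower and 8.62% higher over all genes tested, and the median change was -0.26 on the log2 scale. The chains of type IV collagen, the second network of the basement membrane, made up 5 of the 6, and Col4a6, the remaining chain, named after its values were seen, was not called at 4.65 ± 0.770 and 5.05 ± 0.499 CPM (limma adjusted p = 0.58). Col4a4 fell 1.79-fold from 30.5 ± 3.66 to 17.1 ± 1.13 CPM and Col4a1 1.72-fold from 19.3 ± 2.44 to 11.2 ± 1.96 CPM (limma adjusted p = 1.7e-05 and 0.00071). Col4a2, Col4a3 and Col4a5 also fell, as did Frem1, a protein of epithelial attachment. Col4a5 was not called in 7 of 18 alternatives, among them without knockout library 2, 3 or 4. Frem1 was not called in 2, without wild-type library 2 and without knockout libraries 1 and 4. Over the alternatives 4 to 8 genes of this list fell, 4 without wild-type library 2 and 8 in DESeq2.

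Nid2, a nidogen that links laminin to type IV collagen, rose 2.00-fold from 14.4 ± 0.833 to 28.8 ± 4.78 CPM (limma adjusted p = 2.9e-05). Its paralogue Nid1, named after its values were seen, stood at 30.5 ± 4.08 and 24.5 ± 3.36 CPM (limma adjusted p = 0.055). Hspg2, perlecan, the heparan sulfate proteoglycan of the membrane and the highest gene of the list without a call, stood at 32.5 ± 4.27 and 29.4 ± 3.77 CPM (limma adjusted p = 0.39).

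Of 14 laminin receptors other than integrins that were tested, 14.3% were called, near the 16.9% over all genes. In limma 2 rose and none fell: Rpsa, a ribosomal protein that also has been described as a laminin receptor, from 19.0 ± 1.12 to 29.8 ± 2.36 CPM, and Sgca, alpha-sarcoglycan of the dystrophin complex, from 11.3 ± 1.01 to 17.4 ± 0.450 CPM (limma adjusted p = 4.05e-05 and 0.000106). DESeq2 called 1 gene of this list lower, as did limma with the replicate number as a block and without wild-type library 2. How multi-mapping reads were counted is unstated, which leaves Rpsa, a gene with many copies in the genome, uncertain. Dag1, which encodes dystroglycan, the central receptor of that complex, was named after its values were seen and stood at 57.8 ± 2.26 and 55.2 ± 3.78 CPM (limma adjusted p = 0.49). Pomt1, which adds the sugars dystroglycan needs to bind laminin, stood at 259.9 ± 6.004 and 242 ± 7.77 CPM (limma adjusted p = 0.13).

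Of 13 integrin ligands other than laminins, 4 fell and none rose. Without knockout libraries 1 and 4 it was 2 that fell, and without knockout library 3 it was 5. At the filter of 2 CPM 2 fell, since Spp1 and Thbs2 were not tested there. Spp1 was called in all 17 alternatives that tested it. Spp1, osteopontin, fell 3.31-fold from 2.43 ± 0.333 to 0.736 ± 0.349 CPM, Ltbp1, which holds latent TGF-beta in the matrix, 1.504-fold from 11.3 ± 1.13 to 7.53 ± 1.44 CPM, and Fn1, fibronectin, 1.24-fold from 32.0 ± 2.10 to 25.7 ± 2.13 CPM (limma adjusted p = 0.00033, 0.0054 and 0.0091). Osteopontin and fibronectin are ligands of receptors that contain Itgav. Thbs2, the remaining gene that fell, was not called in 10 of 17 alternatives. Vcam1, a ligand of Itga4 receptors, stood at 66.7 ± 5.06 and 60.6 ± 13.3 CPM (limma adjusted p = 0.39).

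The intracellular adaptors of integrins went both ways, 3 of 23 higher and 4 lower. The number that fell was 2 without wild-type library 1 or 2, without knockout library 2, 3 or 4, without knockout libraries 1 and 4 and with no variance trend. Pxn, paxillin, rose 1.35-fold from 105 ± 5.67 to 142 ± 12.4 CPM and Parvg, a parvin, 1.29-fold from 54.6 ± 6.002 to 70.2 ± 5.82 CPM, while Actn1, alpha-actinin, fell 1.379-fold from 11.2 ± 0.813 to 8.14 ± 0.857 CPM (limma adjusted p = 0.00047, 0.0056 and 0.0050). Lims1 also rose and Parvb, Ptk2 and Lims2 also fell. Of these 4, Lims1, Ptk2 and Lims2 were not called in 7, 7 and 11 of 18 alternatives. Tns1, a tensin and the highest gene of the list, stood at 545.9 ± 11.0003 and 575 ± 48.2 CPM (limma adjusted p = 0.44). The shares called were 30.8% of the ligands and 30.4% of the adaptors, beside 16.9% of all genes tested.

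**Figure D5:**
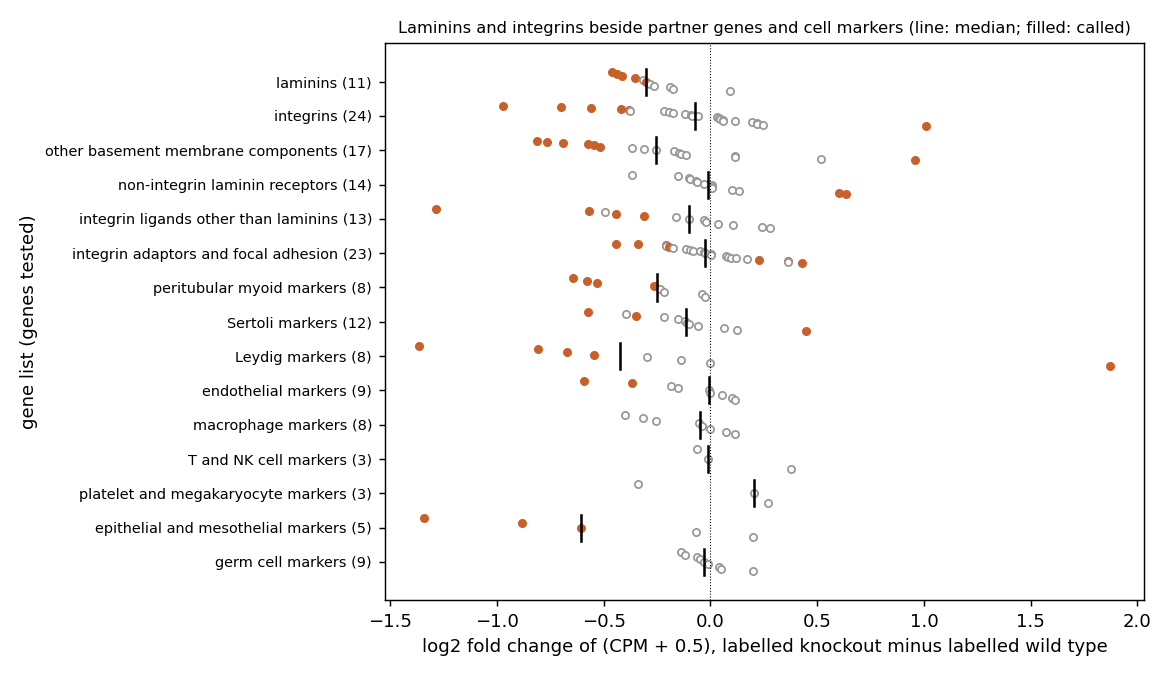
Log2 fold change of (CPM + 0.5) of every tested gene of the laminins, the integrins, 4 lists of partner genes and 9 lists of cell markers (points, called genes filled, black line at the median). The medians are -0.30 for laminins, -0.07 for integrins and -0.26 for other basement membrane components. Among the markers they are -0.60 for epithelial and mesothelial, -0.42 for Leydig, -0.25 for peritubular myoid and -0.12 for Sertoli cells. They are -0.05 for macrophages, -0.03 for germ cells, -0.01 for endothelial cells, -0.01 for T and NK cells and 0.21 for platelets.

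Markers of cells that make or touch the tubular basement membrane, and of other cells of the testis, were examined beside these genes. Over all genes tested 16.9% were called and 8.32% were lower. Of 8 markers of peritubular myoid cells 4 fell and none rose. Their sum was 407 to 484 CPM under the wild-type label and 356 to 375 CPM under the knockout label, lowest in knockout library 4. Actg2 alone made up most of that sum in both groups. Acta2, smooth muscle actin, fell from 41.3 ± 4.77 to 28.5 ± 3.80 CPM, Actg2 from 296 ± 19.5 to 246 ± 3.87 CPM and Myh11 from 28.8 ± 4.13 to 18.3 ± 3.37 CPM (limma adjusted p = 0.0023, 0.0024 and 0.0029), while Mylk stood at 60.1 ± 3.42 and 59.1 ± 4.84 CPM (limma adjusted p = 0.83).

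Of 12 Sertoli cell markers 2 fell and 1 rose, 25% called and 16.7% lower, with sums of 1211 to 1302 and 1063 to 1237 CPM, lowest in knockout library 4. Sox9 fell from 17.7 ± 1.05 to 11.9 ± 1.85 CPM and Rhox5 from 15.5 ± 0.647 to 12.2 ± 2.40 CPM, and Shbg rose from 4.49 ± 0.271 to 6.30 ± 0.241 CPM (limma adjusted p = 0.0017, 0.049 and 0.0044). Rhox5 had overlapping groups and was not called in 12 of 18 alternatives, among them edgeR and 6 omissions of 1 library (each wild-type library, knockout library 3 and knockout library 4), while Sox9 was called in all 18. Clu, the highest marker without a call, stood at 842 ± 36.8 and 787 ± 56.7 CPM. Of 9 endothelial markers 2 fell, 22.2%, with sums of 39.37 to 45.28 and 31.66 to 39.35 CPM, again lowest in knockout library 4. These were Vwf, from 18.1 ± 0.350 to 14.005 ± 1.56 CPM, and Tek, from 4.34 ± 0.912 to 2.69 ± 0.414 CPM (limma adjusted p = 0.0073 and 0.012), a count that was 1 without knockout libraries 1 and 4, with Egfl7 uncalled at 5.79 ± 0.334 and 6.06 ± 0.708 CPM.

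Of 8 Leydig cell markers 4 fell and 1 rose, with sums of 1123 to 1324 and 746 to 1164 CPM, lowest in knockout libraries 1 and 4. Hsd3b1, a steroid dehydrogenase, rose from 22.4 ± 1.84 to 83.9 ± 14.2 CPM, Lhcgr fell from 12.6 ± 1.72 to 6.97 ± 0.887 CPM and Star from 116 ± 27.9 to 47.4 ± 20.9 CPM (limma adjusted p = 2.65e-08, 0.00027 and 0.0019), while Insl3 stood at 434 ± 16.4 and 401 ± 86.9 CPM. Of 6 epithelial and mesothelial markers measured, 5 were tested and 3 fell, with sums of 47.8 to 54.0 and 41.4 to 47.7 CPM. These were Krt19, from 1.30 ± 0.301 to 0.688 ± 0.235 CPM, Upk3b, from 4.99 ± 2.42 to 1.746 ± 1.095 CPM, and Msln, from 2.75 ± 0.975 to 1.30 ± 0.642 CPM (limma adjusted p = 0.029, 0.034 and 0.041), with Epcam uncalled at 36.3 ± 1.383 and 34.6 ± 0.937 CPM. The groups overlapped for all 3, and none of the list was called without wild-type library 1, 3 or 4, without knockout library 4 or without knockout libraries 1 and 4. The number called was 1 without knockout library 3 and with no variance trend.

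For 9 germ cell markers there was no call by limma, edgeR or DESeq2 (1 had an unadjusted p under 0.05 in limma), with sums of 14474 to 15473 and 12210 to 16521 CPM. That sum was lowest of all libraries in knockout library 1 and highest of all in knockout library 4. Prm2 was the highest germ cell marker at 6072 ± 405 and 6285 ± 872 CPM. The highest markers of macrophages, of T and NK cells and of platelets were Mrc1 at 32.0 ± 2.82 and 32.0 ± 2.37 CPM, Cd3d at 11.6 ± 1.00 and 11.8 ± 3.59 CPM and Pf4 at 1.59 ± 0.198 and 2.03 ± 0.341 CPM, none called. The part of these cell types in the laminin and integrin values was not tested.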

How the data were processed

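The table, as the authors deposited it, holds a per-library scaled signal of reads per gene, named CPM in the name of the table, for 24988 Ensembl genes. Per the submitters' processing notes, Trimmomatic, Subread and featureCounts and the build GRCm39 (mm39) were used; versions, annotation release, strand setting and treatment of multi-mapping reads are not given in the sources used. Columns were matched to titles by number, control being taken as wild type. Every value was a whole multiple, within 0.01, of the smallest value above 0 of its column (100% of values), which gave back whole reads. A floor of 3 reads equals 0.0786 to 0.0968 CPM, for counting error only. Symbols came from GENCODE M21 (24890 identifiers matched), as did exon lengths and positions on GRCm38, another build than the authors used. Merged exon lengths include all isoforms.

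Groups were compared with limma (version 3.58.1, R 4.3.3, variance trend). It was run on log2(CPM + 0.5) over the 22027 genes averaging 0.5 CPM or more, with p-values Benjamini-Hochberg adjusted over all of them, threshold 0.05, no covariate, checked on simulated data. Alternatives included edgeR 4.0.16 and DESeq2 1.42.0 on recovered reads; edgeR called 3685 genes. No replicate pair agreed within sampling noise (chi-square per degree of freedom 4.63 to 11.7). All called members and members of at least 5 CPM are named with values, and of each partner and marker list up to 3 called genes of smallest p and the highest uncalled one, with other names given to complete a count. Members and lists were chosen with earlier results of these data known. Values of 1 member are not reported here; counts and sums include it.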

Additional observations from a re-analysis of the deposited data

How the results depend on the processing

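Under the 18 alternatives, no called laminin or integrin gene changed direction, and Itgav, Itga2, Itga6 and Lamb2 were called in each; Itgax was called in the 17 that tested it. With the stricter filter of 2 CPM, Itgax and Itga8 were not tested, so the number of members that rose went from 1 to 0 and the number that fell from 10 to 9. When 1 library was left out, 5 to 10 members fell and 1 or 2 rose, 2788 to 3572 genes were called in all, 10 to 13 partner genes fell and 5 to 7 rose, and the log2 fold change of Kpna2 was 0.38 to 0.55. The members that fell without knockout library 1 included Itgb3 and Lama2, uncalled with all libraries, but not Itga3 and Lamc3. Without knockout libraries 1 and 4, chosen after the data were seen, 5 members and 9 partner genes fell and 2421 genes were called in all. Itgb3 was among these 5 members. With the replicate number as a block, 9 members fell (Itga3 was not called) and 1 rose, and 3446 genes were called. Samples of the same number did not deviate together (correlations of -0.03 to 0.04), so the numbers are not taken to pair the libraries. edgeR and DESeq2 each called 10 members lower and 1 higher. The median change of all genes was between -0.0116 and -0.00428 on the log2 scale under all 18 alternatives. Members under about 1 CPM rest on few reads (3 to 37 per library for Itgam, Itgb7 and Itgb8).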
